A study of Homo sapiens with 15 samples.

Results

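The elastic fibre genes described here were the fibulins FBLN1, FBLN2, FBLN5, EFEMP1 and EFEMP2, the fibrillins FBN1 and FBN2, elastin (ELN), the cross-linking enzyme lysyl oxidase (LOX) and the microfibril-associated protein MFAP2. They were found in the count table by the Entrez gene number that belongs to each symbol, and made up 10 of its 28395 genes. All 10 were listed, and 9 of them passed the filter on low counts that kept 16740 genes for testing, with MFAP2 as the exception. RNA-seq was carried out on BEAS-2B cells, an established cell line derived from human bronchial epithelium and grown in DMEM with fetal bovine serum, non-essential amino acids and Plasmocin. Exposed cultures received nanoplastics of polyethylene terephthalate (PET-NPLs), the plastic of bottles and food trays, at 50 µg/mL for 24 h, 15 weeks or 30 weeks. Each exposed group had untreated, passage-matched controls, giving 2 samples of each arm at 24 h, 2 of each at 15 weeks, and at 30 weeks 3 controls against 4 exposed. The labels do not say whether samples of a group came from separate cultures, so the p-values measure the spread between these samples, which may be technical.

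Elastic fibres give lungs, vessels and skin their recoil. Fibrillins assemble into microfibrils, on which soluble elastin is deposited with the help of fibulins and is then cross-linked by lysyl oxidases into an insoluble polymer. Most of the elastin of a lung is made early in life by fibroblasts and smooth muscle cells, whereas epithelial cells are a minor source, and fibulins and fibrillins also belong to basement membranes and to the matrix that stores TGF-β.

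Depth ran from 23143202 to 31459990 counts per sample, and 1 CPM (counts scaled to library size after TMM) stood for 23.25 to 33.9 counts. The 6 most abundant small noncoding RNAs accounted for 9.748% to 12.916% of counts in batch 1 (24 h and 15 weeks), 22.301% to 31.029% in the 30-week controls and 17.041% to 21.457% in cells exposed for 30 weeks. Control replicate 1 at 30 weeks had the largest such share and the smallest TMM factor, 0.7393. Exposed replicate 2 at 30 weeks correlated least with its own group, with a mean r of 0.9778 against 0.9862 to 0.9876 for the other 3. The 30-week changes of the members that passed the test are therefore also given without each of these libraries. The labels place 24 h and 15 weeks in batch 1 and 30 weeks in batch 2, so that each exposed group was compared with controls of its own batch, but the step from 15 to 30 weeks cannot be told apart from the batch. Among epithelial markers, KRT8 and KRT18 were read at over 100 CPM in all 15 samples, whereas EPCAM and CDH1 stayed under 1 CPM in every sample and KRT5 was at 0 in all samples at 15 and 30 weeks. Vimentin, a mesenchymal marker, averaged between 1035 and 1604 CPM in the 6 groups.

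Promoter sequences are shown for the members whose exposed and control samples separated most clearly at 30 weeks, and for FBN2 beside its paralogue FBN1. The RefSeq table of GRCh38.p14 held promoters of 8 of the 10 members. Each window covered the 250 bases before the start of a transcript. Bases inside an annotated exon of the same gene were left out of the print. The FBN1 window lies inside the annotated gene, whose 5′ end is at 48645709. The windows of FBLN1, EFEMP2 and FBN2 adjoin the 5′ end of their genes. Capitals mark matches, on either strand, to the 5 motifs searched in the windows, and the sequences run 5′ to 3′ on the strand of the gene. The FBLN1 stretch lies at chr22:45502633-45502831 on the forward strand. The others are on the reverse strand, at chr11:65872943-65873050 for EFEMP2, chr15:48644971-48645220 for FBN1 and chr5:128538246-128538495 for FBN2.
FBLN1: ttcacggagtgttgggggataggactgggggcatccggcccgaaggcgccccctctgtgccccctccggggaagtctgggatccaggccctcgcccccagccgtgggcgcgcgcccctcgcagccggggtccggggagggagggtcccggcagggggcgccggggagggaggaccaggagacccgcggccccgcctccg
EFEMP2: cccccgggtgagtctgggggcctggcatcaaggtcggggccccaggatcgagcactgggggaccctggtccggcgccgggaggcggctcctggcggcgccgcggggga
FBN1: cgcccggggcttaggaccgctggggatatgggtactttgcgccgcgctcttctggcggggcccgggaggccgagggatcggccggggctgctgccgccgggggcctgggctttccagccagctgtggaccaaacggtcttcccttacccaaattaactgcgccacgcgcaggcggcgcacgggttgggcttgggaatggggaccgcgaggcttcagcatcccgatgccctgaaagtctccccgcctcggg
FBN2: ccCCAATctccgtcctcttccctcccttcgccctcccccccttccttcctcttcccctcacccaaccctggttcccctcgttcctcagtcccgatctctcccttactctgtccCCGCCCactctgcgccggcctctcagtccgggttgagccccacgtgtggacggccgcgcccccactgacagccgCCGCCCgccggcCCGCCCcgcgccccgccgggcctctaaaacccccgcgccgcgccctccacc
The motifs were the GC box (GGGCGG), the CCAAT box (CCAAT), the TATA box (TATAAA), the AP-1 site (TGANTCA) and the E-box bound by SNAI factors (CAGGTG), none of which contains another. The GC box was held by 42.64% of the 35116 human promoters in the table, the CCAAT box by 32.01%, the TATA box by 10.72%, the AP-1 site by 6.57% and the E-box by 17.49%. EFEMP2 had 5 GC boxes in its window and FBLN1 had 1, all in the exonic bases that are not printed. FBN2 had 3 GC boxes and 1 CCAAT box, and the FBN1 window held none of the 5 motifs. These promoters were rich in G and C, with 77.6% for FBLN1, 81.6% for EFEMP2, 69.6% for FBN1 and 72.8% for FBN2, against a median of 58.0% over all promoters. A match describes the letters of the window, and was not compared with any measurement of binding.

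Levels of different members were compared as CPM per kilobase of exon, with exon lengths taken from GENCODE. The annotation behind the deposited counts is not given in the sources used here, so the comparison between genes depends on those lengths. On this scale EFEMP1 and FBLN2 held the first and second rank in all 6 groups, with EFEMP1 first at 24 h and 15 weeks and FBLN2 first at 30 weeks. FBN1, FBN2 and LOX followed in changing order at ranks 3 to 5. FBLN1 and EFEMP2 held ranks 6 and 7, and FBLN5, ELN and MFAP2 were the lowest everywhere. In the 30-week controls, the mean level per kilobase was 55.5 for FBLN2, 35.3 for EFEMP1, 22.3 for FBN1, 10.6 for LOX, 10.3 for FBN2, 1.13 for EFEMP2, 1.01 for FBLN1, and under 0.2 for FBLN5, ELN and MFAP2. Transcripts of EFEMP1, FBLN2 and the fibrillins were thus abundant, while those of elastin itself were close to the limit of detection.

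**Figure D1:**
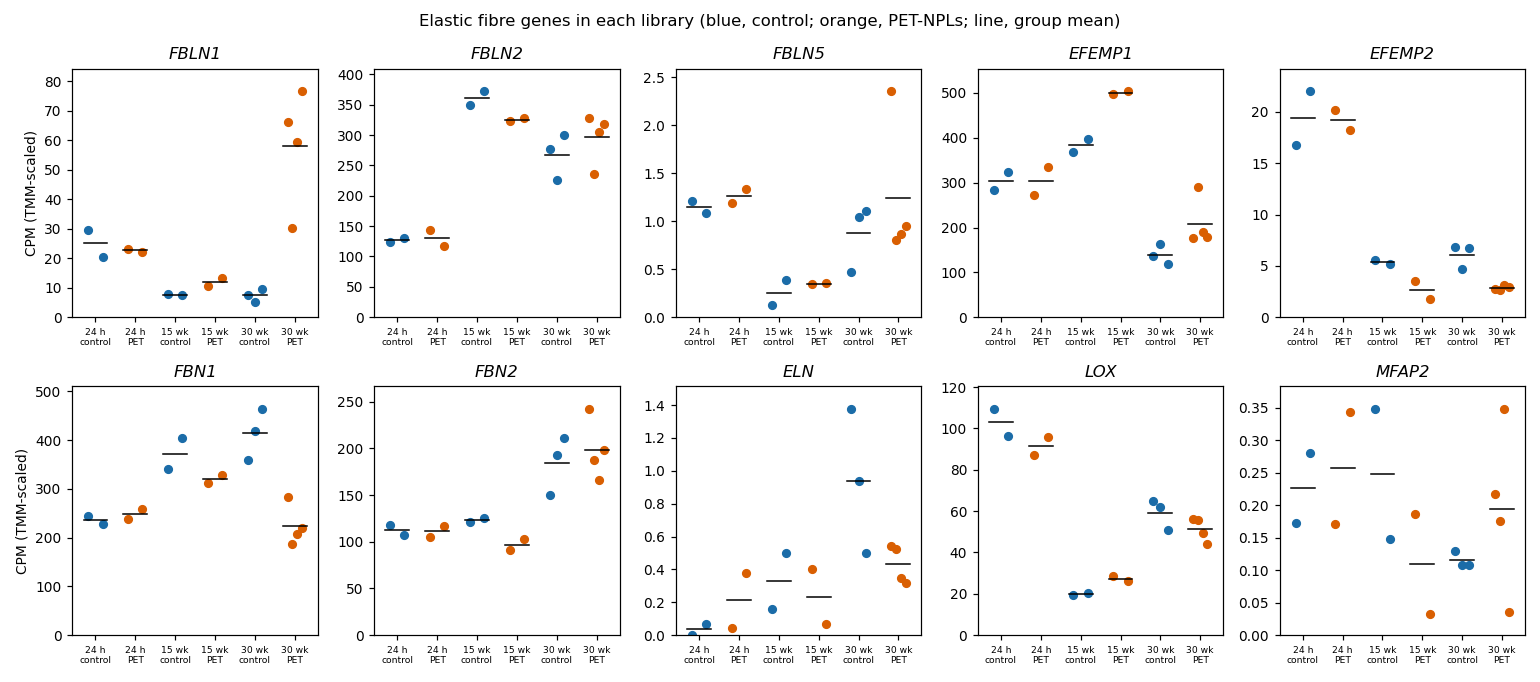
Level of each member in each of the 15 libraries, in CPM per TMM-scaled library, with the 6 groups along the horizontal axis, control libraries in blue, exposed libraries in orange and group means as lines. The FBLN1 panel shows 4 exposed samples at 30 weeks between 30.2 and 76.6 CPM above 3 controls between 5.20 and 9.52 CPM, and the ELN and MFAP2 panels stay under 1.5 CPM throughout.

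At 30 weeks, 4 of the 9 tested members passed the test between exposed and control cells. FBLN1 and EFEMP1 were higher in exposed cells, and EFEMP2 and FBN1 were lower. Over all tested genes, 23.7% passed, of which 12.0% of the tested genes were higher and 11.7% lower, against which the 4 of 9 should be read. The median log2 fold change of the members was 0.10 against 0.01 for all genes, and their median absolute change was 0.58 against 0.30. FBLN1, EFEMP2 and FBN1 also stand in the study's panel of EMT genes, which was filtered on these same samples. The panel therefore adds no independent evidence of their direction. The paper further names EFEMP2 and FBN1 among putative biomarkers that it reports as significantly changed at both long-term time points. In the fit of all 15 samples here, neither passed at 15 weeks. Of 16 alternatives at 15 weeks, FBN1 passed in none, and EFEMP2 only with each time point fitted alone. The alternatives included limma-voom with surrogate variables, which the paper used. The RNA was taken from whole cultures, in which fewer cells of a kind and less RNA per cell cannot be told apart.

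FBLN1 (chr22:45502883-45601135) encodes fibulin-1, a secreted glycoprotein of basement membranes and elastic fibres that binds fibronectin. Its level was 7.40, 5.20 and 9.52 CPM in the 3 controls at 30 weeks and 66.3, 30.2, 59.5 and 76.6 CPM in the 4 exposed samples. Exposed cells therefore lay above the controls without overlap, and the lowest of them, replicate 2, was the library that stood apart from its group. The log2 fold change was 2.98 (SE 0.283, edgeR adjusted p = 1.19e-06), 3.19 without exposed replicate 2 and 2.99 without control replicate 1. At 24 h FBLN1 stood at 29.6 and 20.6 CPM in the controls and at 23.3 and 22.2 CPM in exposed cells, which overlapped. At 15 weeks it was lower in both arms, at 7.71 and 7.64 CPM in the controls and 10.5 and 13.2 CPM in exposed cells. That difference of 0.63 on the log2 scale (SE 0.342) did not pass the test, although the samples did not overlap.

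EFEMP1 (chr2:55865967-55923782), or fibulin-3, is a matrix glycoprotein of basement membranes. In the 30-week controls it read 136, 164 and 119 CPM, and in exposed cells 177, 291, 189 and 179 CPM. All 4 exposed samples lay above the 3 controls, 3 of them by a small margin, and replicate 2 was far above the rest. The log2 fold change was 0.58 (SE 0.174, edgeR adjusted p = 0.0239). Without exposed replicate 2 it was 0.38 and still passed, with an adjusted p of 0.0233. Without control replicate 1 it was 0.57 and no longer passed (adjusted p = 0.0809), and without control replicate 3 it was 0.48 (adjusted p = 0.0872). At 15 weeks EFEMP1 read 369 and 398 CPM in the controls and 498 and 504 CPM in exposed cells, the highest level in any group.

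EFEMP2 (chr11:65866441-65872800), or fibulin-4, is required for elastic fibre assembly because it brings lysyl oxidase to tropoelastin. Its levels at 30 weeks were 6.84, 4.69 and 6.69 CPM in the controls and 2.75, 2.70, 3.13 and 2.96 CPM in exposed cells. The exposed samples were tightly grouped and all below the controls. EFEMP2 fell by 1.07 on the log2 scale (SE 0.201, edgeR adjusted p = 0.00107), with -1.04 without exposed replicate 2 and -0.97 without control replicate 1. At 15 weeks the controls read 5.56 and 5.22 CPM and the exposed samples 3.51 and 1.82 CPM, again without overlap and with a similar log2 fold change of -1.01 (SE 0.265). Its unadjusted p of 0.00152 became 0.621 after adjustment over all genes in the common fit. At 24 h the levels were 16.8 and 22.0 CPM in the controls and 20.2 and 18.3 CPM in exposed cells, and the groups overlapped.

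FBLN2 (chr3:13549125-13638404), fibulin-2, a component of microfibrils and basement membranes, ran from 226 to 300 CPM in the 30-week controls and from 237 to 328 CPM in exposed cells. The ranges overlapped, and the log2 fold change of 0.15 had a 95% interval from -0.14 to 0.44. FBLN5 (chr14:91869411-91947694), fibulin-5, which tethers elastin to microfibrils and to integrins, was barely read. It had 11 to 31 counts in the 30-week controls and 23 to 65 counts in exposed cells, where replicate 1 alone gave the 65. The groups overlapped, and the log2 fold change of 0.48 had a 95% interval from -0.40 to 1.37.

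FBN1 (chr15:48408313-48645709) encodes fibrillin-1, the main structural protein of adult microfibrils and the gene mutated in Marfan syndrome. It read 359, 419 and 463 CPM in the 30-week controls and 282, 187, 207 and 220 CPM in exposed cells. Every exposed sample lay below every control. FBN1 fell by 0.88 on the log2 scale (SE 0.141, edgeR adjusted p = 0.000258), with -0.81 without exposed replicate 2 and -0.97 without control replicate 1. At 15 weeks the controls read 340 and 404 CPM and the exposed samples 312 and 328 CPM, which did not overlap but differed by -0.22 with a 95% interval from -0.61 to 0.18. At 24 h the controls read 245 and 228 CPM and the exposed samples 239 and 258 CPM.

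FBN2 (chr5:128257909-128538245) encodes fibrillin-2, the paralogue best known from developing tissue. Its 30-week levels were 150, 193 and 211 CPM in the controls and 242, 188, 166 and 199 CPM in exposed cells, which overlapped, with a log2 fold change of 0.10 (95% interval -0.20 to 0.41). The ratio of FBN1 to FBN2 counts within a library, which no scaling of libraries can move, was 2.40, 2.17 and 2.19 in the 30-week controls and 1.17, 0.998, 1.25 and 1.11 in exposed cells. At 24 h it lay between 2.07 and 2.26 in the 4 samples and at 15 weeks between 2.82 and 3.43, so the 4 exposed samples at 30 weeks had the lowest ratios of all 15. Per exon base, FBN1 made up 68.4% ± 1.18 (SD, n = 3) of the fibrillin signal in the 30-week controls and 52.0% ± 2.33 (SD, n = 4) in exposed cells. FBN3, the third fibrillin, contributed at most 0.051% in any sample.

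The make-up of the fibulin family was described in the same way. Per exon base, FBLN1 made up 1.08% ± 0.292 (SD, n = 3) of the fibulin signal in the 30-week controls and 6.50% ± 2.29 (SD, n = 4) in exposed cells. EFEMP2 made up 1.20% ± 0.209 and 0.434% ± 0.0392. Most of the signal came from FBLN2 and EFEMP1 in every sample, and the shares of that pair differed between the time points. EFEMP1 made up 69.6% of the fibulin signal in the 24 h controls, 55.7% in the 15-week controls and 38.0% in the 30-week controls, while the share of FBLN2 was 23.8%, 43.1% and 59.4%. In exposed cells EFEMP1 made up 69.1%, 64.4% and 42.6%, and FBLN2 24.6%, 34.4% and 50.1%. The step from 15 to 30 weeks crosses the batches, so time and batch cannot be told apart there. These shares depend on the exon length assigned to each gene and were given no test.

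Elastin (chr7:74028173-74069907) was read at 14 to 32 counts in the 30-week controls and 9 to 15 counts in exposed cells, that is at 0.501 to 1.38 CPM and 0.317 to 0.543 CPM. The groups overlapped, and the log2 fold change of -1.10 had a 95% interval from -2.30 to 0.11. At 24 h ELN had 0 and 2 counts in the controls and 1 and 10 counts in exposed cells, and at 15 weeks 5 and 17 against 13 and 2, and ELN did not pass at any of the 3 time points. An antisense RNA, ELN-AS1, shares 165 bases, 2.5% of the ELN exons, on the opposite strand, and the counting strand is not given in the sources used here. MFAP2 (chr1:16974502-16981583), which encodes the microfibril-associated protein MAGP-1, had 1 to 11 counts per sample and was not tested. It shares 13.6% of its exon bases with a long noncoding RNA on the opposite strand.

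LOX (chr5:122063195-122078259) encodes lysyl oxidase, the copper enzyme that cross-links elastin and collagen. Its 30-week levels were 65.0, 61.9 and 50.6 CPM in the controls and 56.2, 55.7, 49.6 and 44.3 CPM in exposed cells. The groups overlapped, with a log2 fold change of -0.20 and a 95% interval from -0.46 to 0.05. At 15 weeks the order was the other way round, with 19.2 and 20.5 CPM in the controls and 28.6 and 26.2 CPM in exposed cells. This difference of 0.46 (SE 0.160) had an unadjusted p of 0.0103 and an adjusted p of 0.873 in edgeR's common fit. At 24 h LOX read 109 and 96.4 CPM in the controls and 87.4 and 95.8 CPM in exposed cells, which did not overlap but differed by only -0.17 (SE 0.156). Within its family LOX made up 14.4% ± 3.52 (SD, n = 3) of the lysyl oxidase signal per exon base in the 30-week controls and 11.1% ± 3.81 (SD, n = 4) in exposed cells. LOXL2 made up 70.6% and 78.3%. At 24 h the share of LOX was 24.8% in the controls and 23.2% in exposed cells. LOX shares 138 exon bases, 2.5% of its own, with SRFBP1 on the opposite strand. Reads from these bases would be ambiguous only if counting ignored the strand, which is not given in the sources used here.

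At 24 h and at 15 weeks no member passed the test, and neither did any gene of the whole table, with 0% called at 24 h and 0% called at 15 weeks. At an unadjusted p under 0.05, 0 of the 9 members and 277 of the 16740 genes passed at 24 h, and 2 members (EFEMP2 and LOX) and 823 genes at 15 weeks. Samples of the 2 arms did not overlap for 1 of 9 members at 24 h, where 26.0% of all genes did not overlap, and for 7 of 9 at 15 weeks, where 45.3% of all genes did not overlap. At 30 weeks they did not overlap for 4 of 9, against 27.3% of all genes. FBLN1, FBLN2, EFEMP1, EFEMP2, FBN1, FBN2 and LOX were the 7 members without overlap at 15 weeks, and FBLN5 and ELN were the others. Fitting the 15-week samples alone, which takes the spread from 4 samples rather than 15, called 5 members where 1.96% of 15484 genes were called. FBLN1, EFEMP1 and LOX were then higher in exposed cells and EFEMP2 and FBN2 lower, with adjusted p from 0.0130 to 0.0426. The limma-voom and DESeq2 fits of all samples called none of them at 15 weeks.

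**Figure D2:**
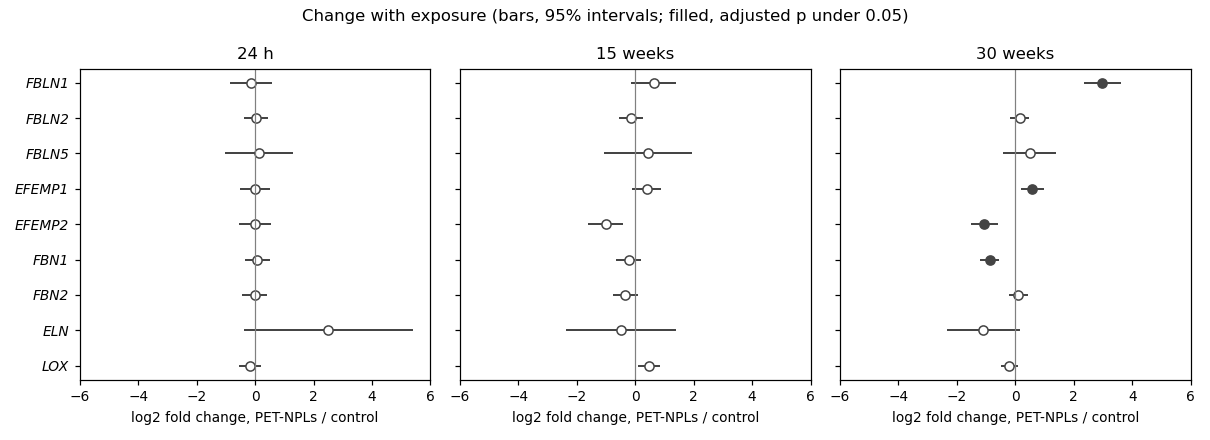
Log2 fold change of the 9 tested members, exposed over control, at 24 h, 15 weeks and 30 weeks, with 95% intervals as bars and filled points where the adjusted p was under 0.05. Points at 24 h lie close to 0 except for the wide interval of ELN, none is filled at 15 weeks, and FBLN1 (2.98), EFEMP1 (0.58), EFEMP2 (-1.07) and FBN1 (-0.88) are filled at 30 weeks.

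Whether the effect of exposure differed between the later time points was tested as the 30-week log2 fold change minus the one at 15 weeks. FBLN1 alone passed among the 9 members, with a difference of 2.35 (SE 0.436, edgeR adjusted p = 0.00394), and 4.74% of all genes passed. For EFEMP2 the difference was -0.06 with a 95% interval from -0.77 to 0.65, and for EFEMP1 it was 0.19 with an interval from -0.41 to 0.79. FBN1 and LOX had differences of the same size, -0.67 for each, with adjusted p of 0.143 and 0.0755. With 2 surrogate variables in the model both passed, so the call for these genes depended on the model. The contrast crosses the batches, which cancel only where they act alike on exposed and control cells.

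For several members the log2 changes over time in culture were larger in size than those with exposure, a contrast that was not tested. Between 24 h and 15 weeks, within batch 1, 6 of 9 members passed in the controls, where 24.9% of all genes passed, and 5 of 9 in exposed cells, where 26.0% passed. LOX fell by 2.37 on the log2 scale in the controls (SE 0.165, edgeR adjusted p = 4.99e-08) and by 1.74 in exposed cells (SE 0.162, adjusted p = 1.01e-06). EFEMP2 fell by 1.85 and 2.85, and FBLN5 by 2.14 and 1.84, in the same order. FBLN5 rested on few counts at 15 weeks, 4 and 13 in the controls and 11 and 11 in exposed cells. FBLN2 rose in both arms, by 1.51 and 1.32. FBLN1 fell by 1.71 in the controls (adjusted p = 0.00169), while its log2 fold change in exposed cells was -0.94 (adjusted p = 0.0512), close to the threshold and called in 5 of 14 alternatives. FBN1 rose by 0.65 in the controls (adjusted p = 0.0168, lost without either 24 h control or without 15-week control replicate 2) and did not pass in exposed cells, at 0.36, and EFEMP1 rose by 0.72 in exposed cells (adjusted p = 0.0266) and did not pass in the controls, at 0.33. The difference between arms over this interval was not tested.

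From 15 to 30 weeks, where time and batch cannot be told apart, 5 of 9 members passed in the controls, with 50.3% of all genes called, and 6 of 9 in exposed cells, with 46.0% called. LOX rose by 1.58 in the controls and 0.91 in exposed cells. FBLN5 rose by 1.76 and 1.82, measured against its few counts at 15 weeks. EFEMP1 fell by 1.46 and 1.26. FBN2 rose by 0.59 in the controls (lost without either 15-week control) and 1.04 in exposed cells. FBLN2 fell by 0.43 in the controls (edgeR adjusted p = 0.0352), with -0.13 in exposed cells. The FBLN2 call in the controls was lost in 5 of 15 alternatives, with upper-quartile scaling among them. FBLN1 separated the arms, since it rose by 2.29 in exposed cells (SE 0.319, edgeR adjusted p = 5.04e-05), while in the controls its log2 fold change was -0.06 with a 95% interval from -0.73 to 0.62. FBN1 fell by 0.51 in exposed cells (adjusted p = 0.0145, lost without either exposed sample of 15 weeks), with 0.15 in the controls.

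**Figure D3:**
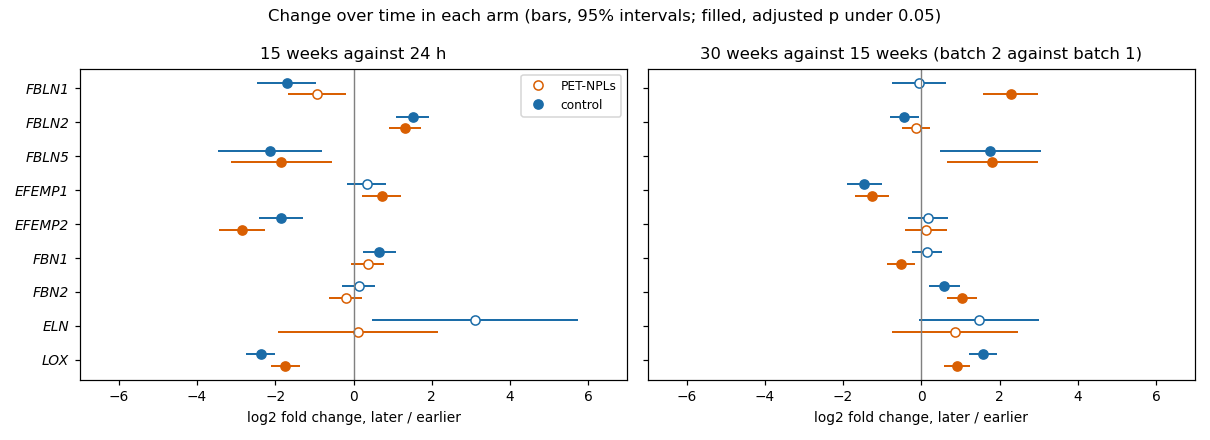
Log2 fold change of the 9 tested members between successive time points, later over earlier, in controls (blue) and exposed cells (orange), with 95% intervals as bars and filled points where the adjusted p was under 0.05. Blue and orange points lie on the same side of 0 for LOX, FBLN5 and FBLN2 in both panels, while for FBLN1 from 15 to 30 weeks the orange point stands at 2.29 and the blue one at -0.06.

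Ordered by mean level, the groups ran differently for each member. FBLN1 was highest in cells exposed for 30 weeks (58.1 ± 19.9 CPM, SD, n = 4), followed by the 24 h groups (25.1 in controls and 22.7 in exposed cells, which overlapped), cells exposed for 15 weeks (11.9), and the 15-week and 30-week controls (7.67 and 7.37, which overlapped). EFEMP2 was highest in the overlapping 24 h groups (19.4 and 19.2 CPM), then in the overlapping 30-week and 15-week controls (6.07 and 5.39), and lowest in the overlapping exposed groups of 30 and 15 weeks (2.88 and 2.66). FBN1 was highest in the overlapping 30-week and 15-week controls (414 and 372 CPM), and its lowest level, 224 CPM in cells exposed for 30 weeks, overlapped that of the 24 h controls (236 CPM). LOX ran from 103 CPM in the 24 h controls to 19.8 CPM in the 15-week controls. Among tested members the widest range of group means was that of ELN, which rested on few counts, followed by FBLN1 with a ratio of 7.89 between its highest and lowest group and EFEMP2 with 7.28, and the narrowest was that of FBN1 with 1.85.

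For each tested member, the genes whose log2 CPM ran most like it over the 15 samples are named as a description, since these samples share 6 group means and a batch. For FBLN1 they were PDLIM1, CPT1A and ADIPOR2, with Pearson's r of 0.96, 0.96 and 0.95. For FBLN2 they were KIRREL3, ALX4 and COL6A1 (r from 0.98 to 0.99), for EFEMP1 MTDH, COG6 and ZNF141 (0.98 to 0.99), and for EFEMP2 STEAP2, SEMA7A and NREP (0.95 to 0.97). FBN1 ran most like HEY1 (0.92), WDR17 (0.91) and CDK15 (0.90), FBN2 most like C1S (0.96), RNF185 (0.95) and VPS11 (0.93), and LOX most like SERPINE2 (0.97), TSC22D1 (0.97) and FERMT1 (0.95). The low counts of FBLN5 and ELN ran most like UTP4, MED14 and HK2 (0.90 to 0.92) and ELOA, LINC00882 and ZDHHC1 (0.88 to 0.91).

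Other genes of the pathway were taken as 7 lists with 64 genes in all, of which 50 were tested. At 24 h and 15 weeks 0 of the 50 passed, and at 30 weeks 15 passed, 9 higher and 6 lower in exposed cells, which is 30% against 23.7% of all genes. Their median log2 fold change at 30 weeks was 0.03. Of 11 structural and microfibril genes, TNXB, which encodes tenascin-X (1.15, adjusted p = 0.0312), and MFAP3 (0.34, adjusted p = 0.0370) were higher, and LTBP1, a fibrillin-binding protein that anchors latent TGF-β (-1.06, adjusted p = 0.00223), was lower. TNXB rested on 7 to 48 counts per sample, and its samples overlapped. Of 11 genes of cross-linking and copper supply, LOXL4 was higher (0.87, adjusted p = 0.00753) and LOXL1, the lysyl oxidase tied most closely to elastin, was lower (-0.41, adjusted p = 0.0299), as was the copper chaperone ATOX1 (-0.43, adjusted p = 0.0202). POSTN, periostin, passed as higher with 5 to 16 counts in exposed samples against 0 to 3 in the controls.

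Of 4 tested scaffold genes, 1 was higher and 2 were lower in exposed cells. Fibronectin (FN1), the matrix on which microfibrils are laid down, read 93.0 to 132 CPM in the 30-week controls and 405 to 725 CPM in exposed cells. The difference was 2.25 on the log2 scale (SE 0.194, edgeR adjusted p = 4.07e-07). Its mean was 2320 and 2205 CPM in controls and exposed cells at 24 h, and 212 and 207 CPM at 15 weeks. Versican (VCAN), a proteoglycan that binds fibrillin-1 and fibulins, read 77.0 to 96.3 CPM in the 30-week controls and 1.63 to 4.24 CPM in exposed cells. The log2 fold change was -5.13 (SE 0.370, edgeR adjusted p = 5.72e-08). Its mean was 1.64 and 2.20 CPM in controls and exposed cells at 24 h, and 14.4 and 5.43 CPM at 15 weeks. The 15-week controls read 6.25 and 22.5 CPM and overlapped the exposed samples, at 4.50 and 6.36 CPM. The 30-week controls, at a mean of 87.5 CPM, were thus the group that stood apart. Perlecan (HSPG2), a basement membrane proteoglycan, was lower by 0.95 in exposed cells (adjusted p = 0.0419), with overlapping samples. FN1 and VCAN also passed the test of the difference between the effects at 30 and 15 weeks, at 2.29 and -3.73. VCAN, like FBLN1, EFEMP2 and FBN1, stands in the study's EMT panel chosen on these samples. FN1, like the integrin subunit gene ITGB8, stands in its lung cancer panel, which was filtered on these samples too. The paper also names VCAN and ITGB8 among putative biomarkers that it reports as significantly changed at both long-term time points. Neither gene passed at 15 weeks in the common fit here.

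Of 9 tested receptors, the integrin subunits ITGB3 and ITGB8, which take part in binding of RGD-containing matrix and in activation of latent TGF-β, were higher in exposed cells, at 1.72 (adjusted p = 1.02e-06) and 2.45 (adjusted p = 4.12e-06), and the other 7 did not pass. Among 5 tested ADAMTS and ADAMTSL proteins, which bind microfibrils, ADAMTSL4 (1.00, adjusted p = 0.0103) and ADAMTSL3 (0.85, adjusted p = 0.000332) were higher. None of 6 elastin-degrading proteases passed. Of 4 elastase inhibitors, TIMP3, a matrix-bound inhibitor of metalloproteinases, was lower, by -1.39 (adjusted p = 2.15e-05). Its mean was 39.4 CPM in the 30-week controls and 15.0 CPM in exposed cells, against 15.2 to 17.9 CPM in the groups of 24 h and 15 weeks.

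**Figure D4:**
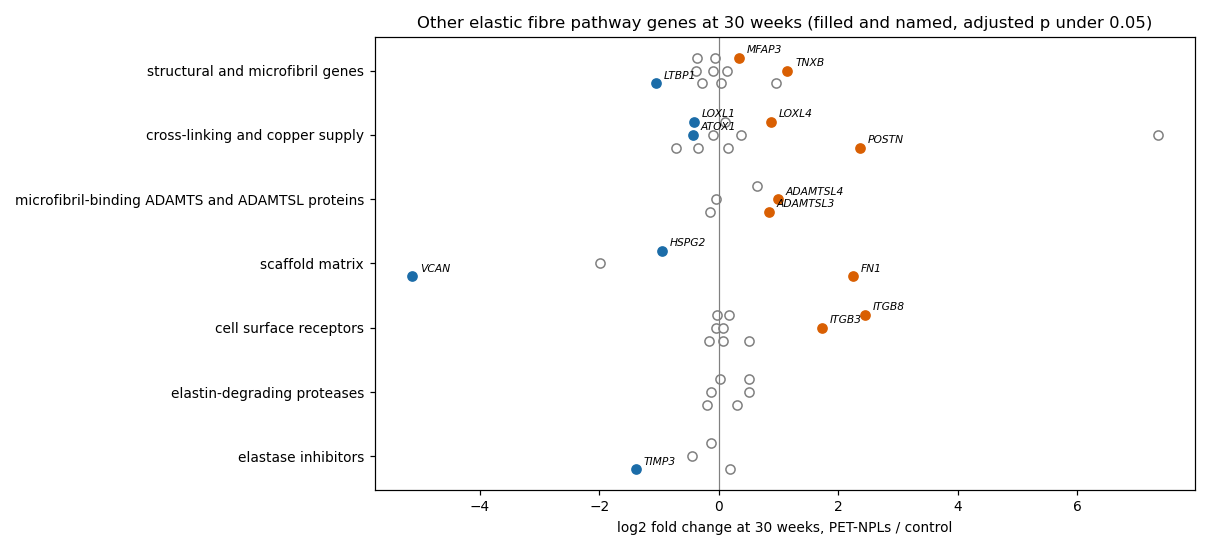
Log2 fold change at 30 weeks, exposed over control, of the 50 tested genes in 7 lists of the elastic fibre pathway, with filled and named points where the adjusted p was under 0.05 (orange higher, blue lower) and open points for the others. VCAN stands at -5.13 and FN1 at 2.25 in the scaffold row, no protease is filled, and the open point at 7.35 is TLL1, named for its position, with 0 counts in all controls and 0 to 78 counts in exposed samples.

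Markers of other cell types moved with some of these contrasts. The summed level of 10 epithelial markers was 314 to 412 CPM in the 30-week controls and 881 to 1097 CPM in exposed cells, with 3 of 7 tested genes higher (KRT8, KRT18 and KRT19). Between 24 h and 15 weeks the same sum went from 2125–2462 to 856–899 CPM in the controls, and keratin 7 (KRT7) from 1215–1414 to 12.7–23.4 CPM. In exposed cells the sum went from 2365–2382 to 826–1036 CPM. KRT8 averaged 482, 545 and 150 CPM in the controls at 24 h, 15 weeks and 30 weeks. Its means in exposed cells were 507, 588 and 616 CPM. Over the same step the smooth muscle sum went from 266–305 to 56.4–61.5 CPM in the controls and from 236–267 to 36.7–46.4 CPM in exposed cells. A sum of 8 skeletal muscle markers was 73.1 to 114 CPM in the 30-week controls and 3.44 to 5.07 CPM in exposed cells, with 3 of 4 tested genes lower. The sum was 4.76 to 6.25 CPM in the 24 h samples and 5.75 to 10.3 CPM in those of 15 weeks. In the 30-week controls it came mostly from MYOD1 (65.8 to 106 CPM). MYOD1 averaged 0.383 and 3.87 CPM in the 24 h and 15-week controls. Smooth muscle markers, of which there were 6, summed to 149 to 176 CPM in the 30-week controls and 255 to 366 CPM in exposed cells. Of the 6, 2 were higher (TAGLN and LMOD1) and 1 lower (DES), while CNN1 had at most 11 counts. TAGLN again gave most of the sum, at means of 157 and 300 CPM. The sum of 11 fibroblast and mesenchymal markers was 2036 to 2555 CPM in the 30-week controls and 1775 to 2028 CPM in exposed cells, with 3 of 10 tested genes higher and 2 lower. The 4 endothelial markers summed to 0.559 to 0.866 CPM in the 30-week controls and 2.15 to 3.01 CPM in exposed cells, with 3 of 3 tested genes higher (CDH5, VWF and KDR). CDH5 rested on 0 against 3 to 21 counts, VWF on 5 to 18 against 28 to 62, and KDR on 1 to 3 against 3 to 15. PECAM1, which was not tested, went the other way, with 2 to 6 counts in the controls and 0 to 2 in exposed samples. The 4 leukocyte markers summed to 1.59 to 1.86 CPM and 3.82 to 5.88 CPM, with the 1 tested gene, CD14, higher. The list for differentiated airway epithelium summed to at most 1.20 CPM in any sample, and its 1 tested gene did not pass. The part of these shifts in the changes of the members with exposure or over time was not tested.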

How the data were processed

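RNA was sequenced from 15 samples of BEAS-2B cells as stranded, ribosomal-RNA-depleted libraries. Per the study's methods, the authors filtered reads with Rfastp, dropping those under 20 bases, aligned the rest to GRCh38 and obtained gene counts with Rsubread. The counting strand is not given in the sources used here. The deposited values are raw counts, without normalization, for 28395 genes named by Entrez number, of which 27745 carried a symbol, and all columns were used.

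The tools were edgeR 4.0.16 for the tests, DESeq2 1.42.0, limma 3.58.1 and sva 3.50.0 for alternatives, all under R 4.3.3. The filterByExpr function, given the 6 groups, kept 16740 genes. After TMM scaling, 1 quasi-likelihood fit took in all 15 samples, with 1 mean per group and Benjamini-Hochberg adjustment over all genes tested. A gene was called at an adjusted p under 0.05. The standard error is the log2 fold change divided by the square root of the test's F, and intervals are 95%. Similar genes were ranked by Pearson's r of log2 CPM (prior count 2) among genes averaging at least 1 CPM, and the 3 highest were named. Exon lengths and strands came from GENCODE on GRCh38, and gene coordinates and promoters from RefSeq. The procedure was tested on simulated data.

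The members, the lists and the tests were chosen with earlier results of these data known. All 10 members are named, and from each list of other pathway genes the 2 highest and 2 lowest changes among those called at 30 weeks. TLL1, KRT7 and the other markers given with values were named after their values were seen. The alternatives were DESeq2, limma-voom, 2 surrogate variables added to the edgeR or the limma-voom model, a separate fit for each time point, upper-quartile scaling, testing genes without a filter or only those that had 10 or more counts everywhere, the counts without 6 small noncoding RNAs, an adjusted p under 0.01, the replicate number as a block, and each replicate left out. The replicate numbers did not mark shared cultures in the labels.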

Additional observations from a re-analysis of the deposited data

Results flagged for a closer look

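Among the 4 exposed samples at 30 weeks, 2 members had a sample far from the others. For FBLN5, replicate 1 read 2.35 CPM (65 counts) against 0.806 to 0.951 CPM in the other 3, and its gap to the next sample was 0.9066 of the range of the group. For EFEMP1, replicate 2 read 291 CPM against 177 to 189 CPM, with a gap of 0.8913 of the range. The limit for 4 samples is 0.829, which chance passes in about 1 of 20 groups, and 10 members were looked at. Leaving out EFEMP1's replicate 2 changed its log2 fold change at 30 weeks from 0.58 to 0.38, and it still passed the test.

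The effect of exposure on FBLN1 differed between 30 and 15 weeks by 2.347 on the log2 scale (SE 0.436, edgeR adjusted p = 0.00394). All 4 exposed samples at 30 weeks, and both at 15 weeks, lay above their controls. The 30-week samples form a batch of their own.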

How the results depend on the processing

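Of 27 alternatives, 1 of them (edgeR's glmQLFit with its legacy option off) chosen after seeing the data, each was run where it touches a comparison, and no called result changed its direction. At 30 weeks FBLN1 (2.78 to 3.22), EFEMP2 (-1.23 to -0.97) and FBN1 (-1.02 to -0.79) passed in all 19 alternatives. EFEMP1 (0.38 to 0.71, adjusted p up to 0.0892) was lost in 4 of 19, namely with each time point fitted alone, at an adjusted p under 0.01, and without control replicate 1 or 3. The difference between the effects at 30 and 15 weeks was called for 1 member, for 2 with DESeq2, for 3 with surrogate variables in limma-voom or in edgeR, and for 1 to 2 with a replicate left out. FBLN1 was among them each time. The additions were LOX with DESeq2, without 30-week control replicate 3 and without 30-week exposed replicate 2, FBN1 without 30-week exposed replicate 1, and both with surrogate variables. At 15 weeks 0 members were called, but 5 with each time point fitted alone. Controls at 30 against 15 weeks had 5 members called, 3 at an adjusted p under 0.01 and 2 to 5 with a replicate left out, with 2 without 15-week control replicate 1 and 3 without 15-week control replicate 2 or 30-week control replicate 2. Exposed cells at 15 weeks against 24 h had 5, and 3 at an adjusted p under 0.01 and without any 1 of the 4 samples, when FBLN5 and EFEMP1 were lost. In the same comparison FBLN1 was gained in 5 of 14 alternatives (DESeq2, both models with surrogate variables, no filter, and the counts without 6 small noncoding RNAs, adjusted p down to 0.000148). Controls at 15 weeks against 24 h had 6 members called and 4 to 7 under the alternatives, where FBN1 was lost in 4 of 14 (adjusted p up to 0.152), at an adjusted p under 0.01 and without either 24 h control or 15-week control replicate 2, FBLN5 in 4 of 13 (up to 0.162), and ELN was gained with DESeq2 and with edgeR and surrogate variables. In exposed cells at 30 against 15 weeks, FBN1 was lost in 3 of 16 (up to 0.103) and FBLN5 in 3 of 15 (up to 0.0813), at an adjusted p under 0.01 and without either exposed sample of 15 weeks. Where leaving out a sample left an arm with 1, its spread was taken from the other groups. The cause of these changes was not tested. The replicate number as a replicate block left 4 members called at 30 weeks, 1 in the difference and 0 at 15 weeks and 24 h. Same-numbered samples did not deviate together (r from -0.1177 to 0.3026), so the numbers were not taken as pairs. ELN had at most 32 counts per sample, FBLN5 65 and MFAP2 11, so their values carry the widest counting error among the members.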
